A study of Mus musculus with 9 samples.

Results

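The 10 genes described here carry iron into red cell precursors, store it, release it and sense it: Tfrc, Slc11a2, Steap3, Fth1, Ftl1, Ireb2, Aco1, Slc40a1, Ncoa4 and Pcbp1. They were taken by symbol from a deposited table of 20368 genes, all 10 were found, and all 10 were among the 9543 genes abundant enough to test. The cells were spleen cells of 4-week-old C57BL/6 mice, stained and sorted by flow cytometry for CD71 together with the erythroid antigen Ter119. CD71 is the protein made by Tfrc, so the presence of Tfrc transcript follows from the sort and is no finding. There were 3 wildtype libraries, 3 from Dhh+/- mice (heterozygous) and 3 from Dhh-/- mice (knockout), and the study's title places Dhh, the secreted ligand Desert hedgehog, in the regulation of red cell formation in the spleen. The labels used here give neither the construction of the null allele nor the sex of the mice, and they do not tie a library to a separate animal. The p-values therefore reflect only how these libraries vary, which may be technical variation.

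Erythroblasts take up more iron than most cells, because each of them fills with haemoglobin. Transferrin carrying iron binds the receptor Tfrc at the surface, the complex enters endosomes, the reductase Steap3 converts the iron to its ferrous form, and the transporter Slc11a2 moves it to the cytosol. The chaperone Pcbp1 hands iron to ferritin, a shell of heavy (Fth1) and light (Ftl1) chains, Ncoa4 takes ferritin to the lysosome for release, and Slc40a1 (ferroportin) exports iron from the cell. The iron-regulatory proteins, made by Aco1 and Ireb2, bind short RNA hairpins called iron-responsive elements when iron is scarce. Binding in a 5′ untranslated region blocks translation, and binding in the 3′ untranslated region of Tfrc protects the transcript from decay.

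These hairpins are printed because they are the sequence that joins the sensing genes to the uptake, storage and export genes of the set. The spliced GENCODE M21 transcripts (mm10) were searched on the transcript strand. The search asked for a C, 5 bases, the loop CAGTGN, and 5 bases that pair with the first 5 (A-T, G-C or G-T). Whether the C is unpaired, and any pairing outside these bases, was not checked. The pattern was found in 4 of the 10 genes, at 7 places. Each line gives 29 bases, 5′ to 3′, with the loop in capitals.
Tfrc a: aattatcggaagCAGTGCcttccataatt
Tfrc b: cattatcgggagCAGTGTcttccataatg
Tfrc c: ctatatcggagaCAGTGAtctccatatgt
Tfrc d: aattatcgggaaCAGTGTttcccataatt
Fth1: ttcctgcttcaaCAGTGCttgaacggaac
Ftl1: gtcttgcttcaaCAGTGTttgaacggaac
Slc40a1: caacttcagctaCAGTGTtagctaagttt

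The Tfrc hairpins lie in the 3′ untranslated part of exon 19 of transcript Tfrc-201, on the plus strand, at chr16:32631219-32631247, chr16:32631598-32631626, chr16:32631663-32631691 and chr16:32631710-32631738. The other 3 lie in the 5′ untranslated part of exon 1: Fth1 at chr19:9982732-9982760 on the plus strand, Ftl1 at chr7:45459779-45459807 on the minus strand, and Slc40a1 at chr1:45925465-45925493 on the minus strand. The Fth1 and Ftl1 stretches were identical at 26 of 29 bases, so the 2 ferritin chains carry nearly the same element. The element was present in 4 of 5 annotated coding transcripts of Fth1, 1 of 2 of Ftl1, 1 of 4 of Slc40a1 and 1 of 3 of Tfrc. Among all genes, the pattern occurred in 31 of 20899 with a 5′ untranslated region (0.148%) and in 129 of 21685 with a 3′ untranslated region (0.595%). A match describes the letters only, and the 6 genes without one may hold other forms.

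Facts of the whole series that bear on these genes are few. The deposited FPKM (fragments per kilobase, here scaled by a size factor in place of the library total) correspond to 7.05 to 14.23 M reads per library (M, mega). In 4 libraries the reads stayed below 10 M, namely replicate 2 of each genotype and wildtype replicate 1, and the other 5 held at least 13.05 M. Dhh was listed at 0 in 8 libraries, all 3 wildtype libraries among them, and at 0.0267 FPKM in heterozygous replicate 1, so its level is no test of the labelled genotype. Every library carried erythroid transcripts: 9 of 10 defining genes, among them Alas2, Klf1 and Hbb-bs, were in the table, and their summed level ran from 15392 to 30317 FPKM. Other blood cells left transcripts as well. The summed 16 macrophage markers ran from 170 FPKM in wildtype replicate 3 to 1814 in knockout replicate 2, the 11 B cell markers from 90.9 to 1433, the 10 T and NK cell markers from 9.62 to 161, the 10 neutrophil markers from 273 to 1642, and the platelet markers from 32.9 to 54.0. No marker of the macrophage, B cell, T and NK cell or neutrophil lists was at 0 in all 9 libraries.

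By level per length, ferritin led the set. Fth1 ranked 8 and Ftl1 ranked 14 among the 9543 tested genes by mean FPKM, and together they made up 0.853% to 1.21% of all FPKM in a library. Tfrc ranked 123 and Ncoa4 225, followed by Pcbp1 (874), Slc40a1 (1273), Slc11a2 (1818), Steap3 (2108), Ireb2 (4220) and Aco1 (5314). The storage genes thus stood far above the sensors: the lowest Ftl1 value of any library was 1241 FPKM, against a highest Ireb2 value of 14.2 FPKM. The ranges over the 9 libraries overlapped between Fth1 and Ftl1, Tfrc and Ncoa4, Pcbp1 and Slc40a1, Slc40a1 and Slc11a2, Slc11a2 and Steap3, and Ireb2 and Aco1. They did not overlap between Ftl1 and Tfrc, between Ncoa4 and Pcbp1, or between Steap3 and Ireb2.

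**Figure D1:**
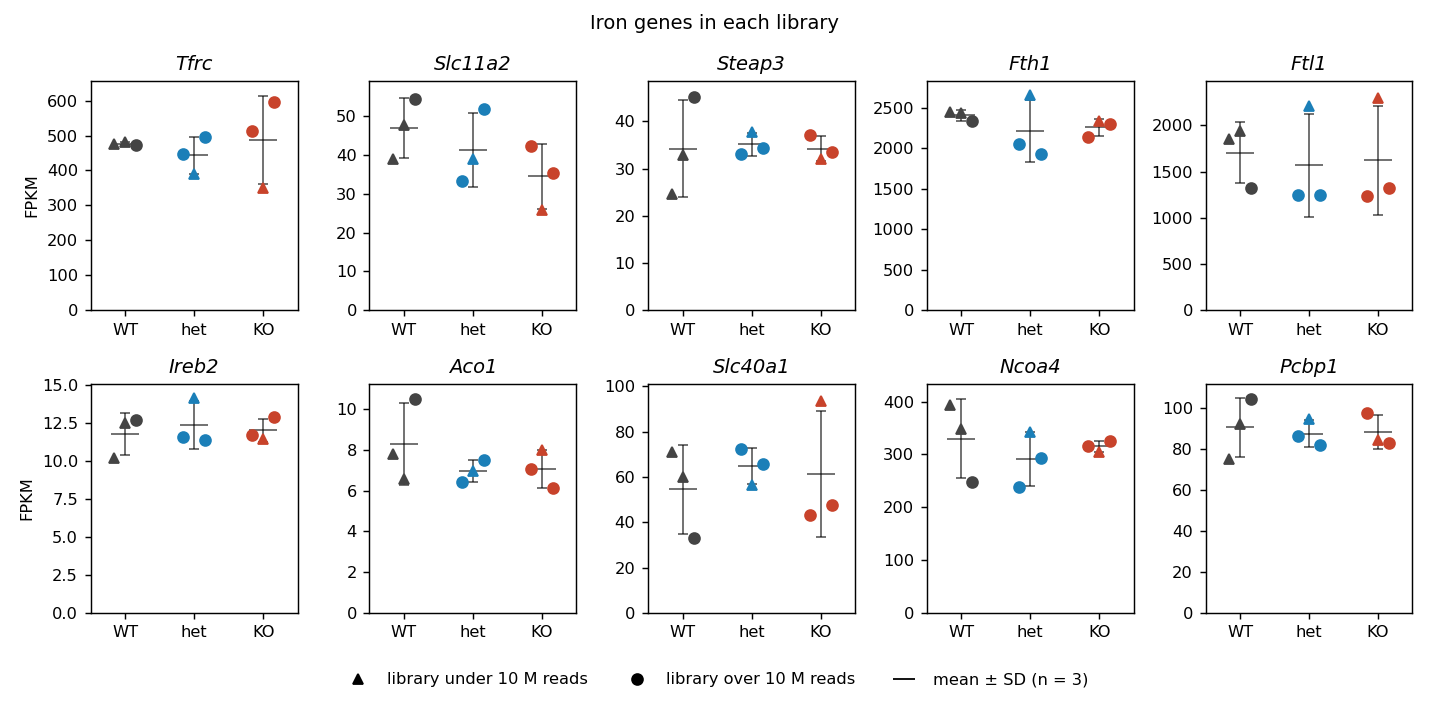
FPKM of the 10 iron genes (vertical axes, linear, from 0) in the wildtype (WT), heterozygous (het) and knockout (KO) libraries; each point is a library, triangles mark the 4 libraries under 10 M reads, and bars give mean ± SD of 3 libraries. The genotypes overlap in every panel, and in the Ftl1 panel the triangles (1858 to 2299 FPKM) sit above the circles (1241 to 1328 FPKM).

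For none of the 10 iron genes did a difference between genotypes exceed the spread of the libraries by the test used. In limma's test on log2(FPKM + 1), adjusted by Benjamini-Hochberg over all 9543 genes, 0 of 10 members passed 0.05 for knockout versus wildtype, where 0.0% of all genes passed. The same held for heterozygous versus wildtype (0 of 10, with 0.0% of all genes) and for knockout versus heterozygous (0 of 10, with 0.0% of all genes). At an unadjusted p below 0.05 in this test, 43, 113 and 56 of the 9543 genes stood in these 3 comparisons and 0 members in each. Every one of these counts is below a share of 0.05 of the 9543 genes, so 0 members is no trait of the set. Voom on the recovered reads also called 0 genes, with 38, 91 and 53 at an unadjusted p below 0.05. The groups overlapped for all 10 genes in each comparison. Among all genes they did not overlap for 2.48% in knockout versus wildtype, 4.36% in heterozygous versus wildtype and 4.48% in knockout versus heterozygous. With shares this small, 0 of 10 does not set the members apart from other genes.

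The precision behind these differences can be read from their 95% intervals. For knockout versus wildtype the interval stayed within a 2-fold change in either direction for all 10 genes (86.6% of all genes), for heterozygous versus wildtype for 9, the exception being Slc40a1 (85.2% of all genes), and for knockout versus heterozygous for 10 (86.4%). The members' median differences were -0.03, -0.12 and 0.01 on the log2(FPKM + 1) scale, beside 0.01, -0.002 and 0.0037 for all tested genes. The second of these medians was 0.08 with quantile normalization, 0.02 with equal summed FPKM and -0.03 without heterozygous replicate 1 or without heterozygous replicate 3. The 3 comparisons share libraries and are not independent of one another.

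**Figure D2:**
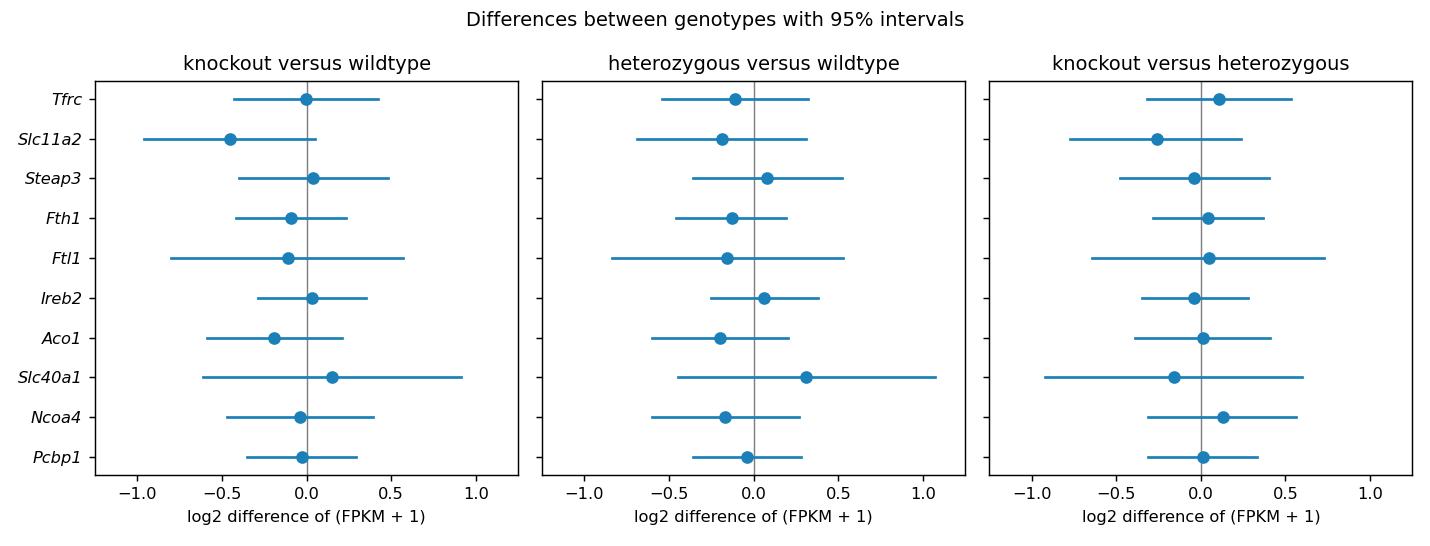
Log2 differences of (FPKM + 1) between genotypes (horizontal axes) for each iron gene, with 95% intervals from limma over 9 libraries; the first-named genotype minus the second. Every interval crosses 0, and the interval of Slc11a2 in knockout versus wildtype, from -0.96 to 0.05, comes closest to leaving it.

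The uptake genes come first. Tfrc (chromosome 16, 32608920 to 32632794), the receptor, was at 475, 481 and 474 FPKM in wildtype replicates 1 to 3, at 447, 389.5 and 495 in the heterozygous libraries and at 514, 351 and 596 in the knockout libraries. The wildtype libraries lay within a few FPKM of each other, whereas the knockout group held both the lowest and the highest of the 9 values. The means were 477 ± 4.05, 444 ± 53.0 and 487 ± 125 (SD, n = 3 each). Knockout minus wildtype was -0.0029 ± 0.19 (log2, SE; 95% interval -0.43 to 0.42; adjusted p = 0.9997, limma), a fold of 0.998. Inside the shallower libraries this difference was -0.44 and inside the deeper ones 0.22. Each of these values has 1 library in an arm (knockout replicate 2 among the shallower, wildtype replicate 3 among the deeper), so neither has a replicate check. Heterozygous minus wildtype was -0.11 ± 0.19 and knockout minus heterozygous 0.11 ± 0.19.

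Slc11a2 (chromosome 15, 100387898 to 100425072), the transporter that moves ferrous iron out of the endosome, showed the lowest p of the set. It was at 39.0, 47.8 and 54.4 FPKM in wildtype replicates, at 33.3, 39.0 and 51.9 in heterozygous replicates and at 42.4, 25.7 and 35.4 in knockout replicates. Knockout replicates 2 and 3 were below every wildtype library, and knockout replicate 1 was above wildtype replicate 1, so the groups overlapped. The means were 47.0 ± 7.73, 41.4 ± 9.53 and 34.5 ± 8.35 FPKM (SD, n = 3 each). The knockout minus wildtype difference was -0.45 ± 0.22 (log2, SE), a fold of 0.731 with a 95% interval of 0.516 to 1.04, and did not pass limma's test (unadjusted p = 0.0736, adjusted p = 0.9997). It was -0.72 inside the shallower and -0.48 inside the deeper libraries, each again with a single library in an arm, and -0.26 without knockout replicate 2. Heterozygous minus wildtype was -0.19 ± 0.22 and knockout minus heterozygous -0.26 ± 0.22. The gene lies 1.49 Mb from Dhh on the same chromosome.

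Steap3 (chromosome 1, 120190757 to 120272705), the endosomal reductase, was at 24.7, 32.8 and 45.2 FPKM in wildtype replicates, at 33.2, 37.8 and 34.4 in heterozygous replicates and at 37.1, 32.1 and 33.6 in knockout replicates. The lowest and the highest library were both wildtype, and the other 7 fell between them. Its means were nearly equal, at 34.2 ± 10.4, 35.1 ± 2.41 and 34.3 ± 2.6 FPKM (SD, n = 3 each). The knockout minus wildtype difference was 0.04 ± 0.2 (log2, SE; 95% interval -0.4 to 0.48).

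The ferritin chains were the most abundant genes of the set. Fth1 (chromosome 19, 9980598 to 9985098), the chain with the ferroxidase activity that oxidises iron on entry, was at 2444, 2436 and 2328 FPKM in wildtype replicates, at 2055, 2651 and 1930.3 in heterozygous replicates and at 2139, 2339.6 and 2293 in knockout replicates. The highest and lowest values were both heterozygous, 1.37-fold apart. The means were 2403 ± 65.1, 2212 ± 385 and 2257 ± 105 FPKM (SD, n = 3 each), and knockout minus wildtype was -0.09 ± 0.14 (log2, SE; 95% interval -0.42 to 0.23) as deposited and 0.09 after quantile normalization.

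Ftl1 (chromosome 7, 45457944 to 45459884), the light chain that helps the mineral core form, was at 1858, 1935 and 1328 FPKM in wildtype replicates, at 1249, 2212 and 1243 in heterozygous replicates and at 1241, 2299 and 1327 in knockout replicates. Each genotype held at least 1 value of 1328 FPKM or below and at least 1 of 1858 FPKM or above, with none between. The split followed sequencing depth and not genotype: the 4 shallower libraries lay at 1858 to 2299 FPKM and the 5 deeper ones at 1241 to 1328, a 1.62-fold difference of the means. Fth1 was ordered the same way by a narrow margin, at 2339.6 to 2651 and 1930.3 to 2328 FPKM. The other 8 genes overlapped between these sets, and 5.66% of all tested genes were higher in every shallower library, 6.86% lower. The genotype means of Ftl1 were 1707 ± 330.5, 1568 ± 558 and 1622 ± 588 FPKM (SD, n = 3 each), with a knockout minus wildtype difference of -0.11 ± 0.3 (log2, SE; 95% interval -0.8 to 0.57). That difference was 0.28 inside the shallower and -0.05 inside the deeper libraries, with the same single-library arms, and 0.03 with depth as a term.

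Several late erythroid genes were ordered by depth as Ftl1 was. The 10 genes of the late maturation list summed to 20013 to 22673 FPKM in the shallower and 11529 to 14597 FPKM in the deeper libraries. Of these 10 genes, 6 were higher in every shallower library (Hbb-bs, Hba-a1, Ube2l6, Bpgm, Ube2o and Bnip3l), and 4 overlapped between the sets (Slc4a1, Epb4.2, Xpo7 and Trim58). Slc4a1, the anion exchanger of the red cell membrane, was at 2994 to 3689 FPKM in the shallower and 2899 to 3585 FPKM in the deeper libraries. Alas2, the first enzyme of haem synthesis and itself a transcript with the hairpin pattern in its 5′ untranslated region, was at 6379 to 7458 and 2884 to 4069 FPKM. The split by depth was not confined to erythroid genes. The summed T and NK cell markers were at 102 to 161 FPKM in the shallower and 9.62 to 69.4 FPKM in the deeper libraries. The summed platelet markers went the other way, at 32.9 to 36.7 and 38.0 to 54.0 FPKM. The macrophage, B cell and neutrophil sums overlapped between the sets. Depth, cell makeup and the level of the 6 late erythroid transcripts cannot be told apart in these libraries. The annotation lists 14 further ferritin copies, 7 of them pseudogenes, and 6 have a row in the table (the Fthl17 genes). How alike these copies are to Fth1 and Ftl1 was not measured. Reads of Fth1 and Ftl1 may be shared with some of them, and their levels are uncertain to that extent.

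Iron loading and release were represented by Pcbp1 and Ncoa4. Pcbp1 (chromosome 6, 86524492 to 86526321), the chaperone, was at 75.1, 91.9 and 104 FPKM in wildtype replicates, at 86.0, 94.4 and 81.6 in heterozygous replicates and at 97.5, 84.1 and 82.8 in knockout replicates. As for Steap3, the wildtype group held both extremes. Its means were 90.4 ± 14.7, 87.3 ± 6.5 and 88.1 ± 8.13 FPKM (SD, n = 3 each), and knockout minus wildtype was -0.03 ± 0.14 (log2, SE; 95% interval -0.35 to 0.29).

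Ncoa4 (chromosome 14, 32159865 to 32179855), the receptor that delivers ferritin to the lysosome, was at 394, 348 and 247 FPKM in wildtype replicates, at 239, 342 and 294 in heterozygous replicates and at 316, 304 and 325 in knockout replicates. The knockout values were the closest together, inside the range of the wildtype values. The means were 329.7 ± 75.4, 292 ± 51.7 and 315 ± 10.8 FPKM (SD, n = 3 each), and knockout minus wildtype was -0.04 ± 0.19 (log2, SE; 95% interval -0.47 to 0.39).

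Slc40a1 (chromosome 1, 45908068 to 45926523), the exporter, varied most within genotypes. It was at 71.1, 60.0 and 32.9 FPKM in wildtype replicates, at 72.4, 56.6 and 65.9 in heterozygous replicates and at 43.3, 93.4 and 47.5 in knockout replicates. Wildtype replicate 3 was the lowest and knockout replicate 2 the highest, 2.84-fold apart. The means were 54.7 ± 19.6, 65.0 ± 7.92 and 61.4 ± 27.8 FPKM (SD, n = 3 each). Knockout minus wildtype was 0.15 ± 0.34 (log2, SE; 95% interval -0.61 to 0.91), -0.18 without wildtype replicate 3 and -0.2 without knockout replicate 2. Heterozygous minus wildtype was 0.31 ± 0.34 (95% interval -0.45 to 1.07) and -0.01 without wildtype replicate 3, and knockout minus heterozygous was -0.16 ± 0.34.

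Slc40a1 is also a gene of the red pulp macrophage, which recycles iron from old red cells, and macrophage transcripts differed in amount between libraries. The summed macrophage markers were at 1664, 1015 and 170 FPKM in wildtype replicates, at 1078, 856 and 1089.7 in heterozygous replicates and at 512, 1814 and 687 in knockout replicates. The 3 libraries lowest in Slc40a1 (wildtype 3, knockout 1 and knockout 3) were the 3 lowest in these markers, in the same order, and knockout replicate 2 was highest in both. The B cell markers and the T and NK cell markers were also lowest in wildtype replicate 3 (90.9 and 9.62 FPKM). The neutrophil markers were lowest in heterozygous replicate 1 (273 FPKM) and the platelet markers in knockout replicate 2 (32.9 FPKM). In bulk cells, more macrophages, more RNA per macrophage and a change of Slc40a1 within the erythroblasts cannot be told apart. With the macrophage markers as a term in the fit, the Slc40a1 difference was 0.04 ± 0.11 (log2, SE) for knockout versus wildtype. It was 0.1 ± 0.12 for heterozygous versus wildtype and -0.06 ± 0.11 for knockout versus heterozygous. Without the term these were 0.15 ± 0.34, 0.31 ± 0.34 and -0.16 ± 0.34, and none was called in either fit. The cell source of the Slc40a1 transcripts was not tested.

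**Figure D3:**
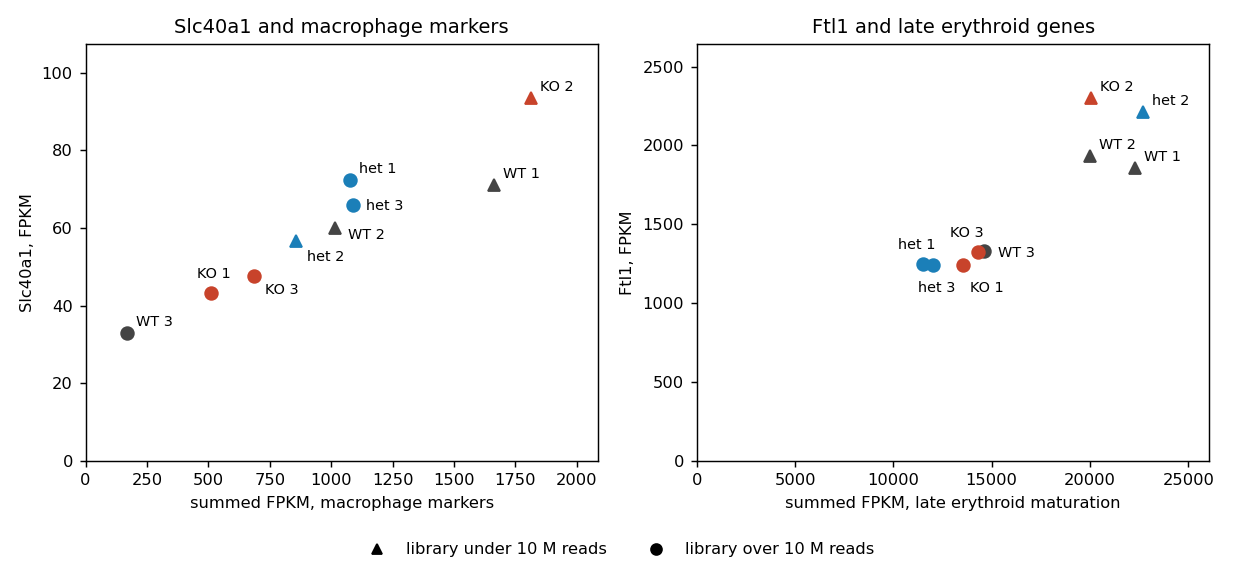
Slc40a1 against the summed macrophage markers (left) and Ftl1 against the summed late erythroid genes (right), all in FPKM on linear axes, 1 point per library, with triangles for the 4 libraries under 10 M reads. Slc40a1 runs from 32.9 FPKM at the lowest marker sum (170) to 93.4 at the highest (1814), and on the right the triangles and circles form separate sets.

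The iron sensors were the least abundant genes of the set. Ireb2 (chromosome 9, 54863789 to 54912530), whose protein is degraded when iron is plentiful, was at 10.2, 12.5 and 12.7 FPKM in wildtype replicates, at 11.6, 14.2 and 11.4 in heterozygous replicates and at 11.7, 11.5 and 12.9 in knockout replicates. The values of all genotypes ran through each other, with means of 11.8 ± 1.43, 12.4 ± 1.57 and 12 ± 0.775 FPKM (SD, n = 3 each). Knockout minus wildtype was 0.03 ± 0.14 (log2, SE; 95% interval -0.29 to 0.35).

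Aco1 (chromosome 4, 40143081 to 40198338), whose protein is a cytosolic aconitase when it holds an iron-sulfur cluster and binds RNA when it does not, was at 7.82, 6.55 and 10.5 FPKM in wildtype replicates, at 6.41, 6.98 and 7.51 in heterozygous replicates and at 7.07, 7.99 and 6.12 in knockout replicates. Wildtype replicate 3 was the highest, and the other 8 libraries lay between 6.12 and 7.99. The means were 8.27 ± 2.0, 6.97 ± 0.549 and 7.06 ± 0.932 FPKM (SD, n = 3 each), and knockout minus wildtype was -0.19 ± 0.18 (log2, SE; 95% interval -0.59 to 0.21), -0.02 without wildtype replicate 3 and -0.32 without wildtype replicate 2. Heterozygous minus wildtype was -0.2 ± 0.18, -0.04 without wildtype replicate 3 and -0.34 without wildtype replicate 2. Aco1 rested on the fewest reads of the set, 220 to 604 per library, against 13961 to 38124 for Tfrc.

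The spread within genotypes, as an SD on the log2 scale, was 0.14 for Ireb2, 0.15 for Fth1, 0.17 for Pcbp1 and 0.21 for Aco1, all below the median of 0.23 over the tested genes. Tfrc and Ncoa4 (0.25 each), Steap3 (0.26), Slc11a2 (0.31), Ftl1 (0.43) and Slc40a1 (0.49) were above it, so the light chain and the exporter had the widest intervals of the set. Across the other 7 genes (those besides Tfrc, Slc11a2 and Slc40a1), heterozygous minus wildtype differences ran from -0.2 (Aco1) to 0.08 (Steap3) and knockout minus heterozygous differences from -0.04 (Steap3 and Ireb2) to 0.13 (Ncoa4).

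Ratios within a library do not depend on how libraries are scaled to each other, and 4 of them were compared between genotypes. The ratio of heavy to light ferritin chain was above 1 in all 9 libraries, from 1.02 in knockout replicate 2 to 1.75 in wildtype replicate 3. Its means were 1.44 ± 0.27 (wildtype), 1.47 ± 0.236 (heterozygous) and 1.49 ± 0.409 (knockout) (SD, n = 3 each). By depth it ran from 1.02 to 1.32 in the shallower and from 1.55 to 1.75 in the deeper libraries.

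The ratio of Tfrc to Fth1, uptake over storage, was 0.198 ± 0.00475 (wildtype), 0.207 ± 0.0556 (heterozygous) and 0.217 ± 0.0585 (knockout) (SD, n = 3 each). It too was separated by depth, at 0.147 to 0.198 and 0.204 to 0.26. Ireb2 exceeded Aco1 by 1.22 to 2.11 times, with means of 1.48 ± 0.381, 1.79 ± 0.258 and 1.73 ± 0.344 in wildtype, heterozygous and knockout libraries. Slc11a2 over Slc40a1 varied most, from 0.276 in knockout replicate 2 to 1.65 in wildtype replicate 3, which were the libraries highest and lowest in macrophage markers. In 2-sided exact permutation tests of 3 against 3 libraries, which cannot give a p below 0.1, the lowest of the 12 p-values was 0.3 (Ireb2 to Aco1, heterozygous versus wildtype), and all 12 were 1.0 after Benjamini-Hochberg adjustment.

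**Figure D4:**
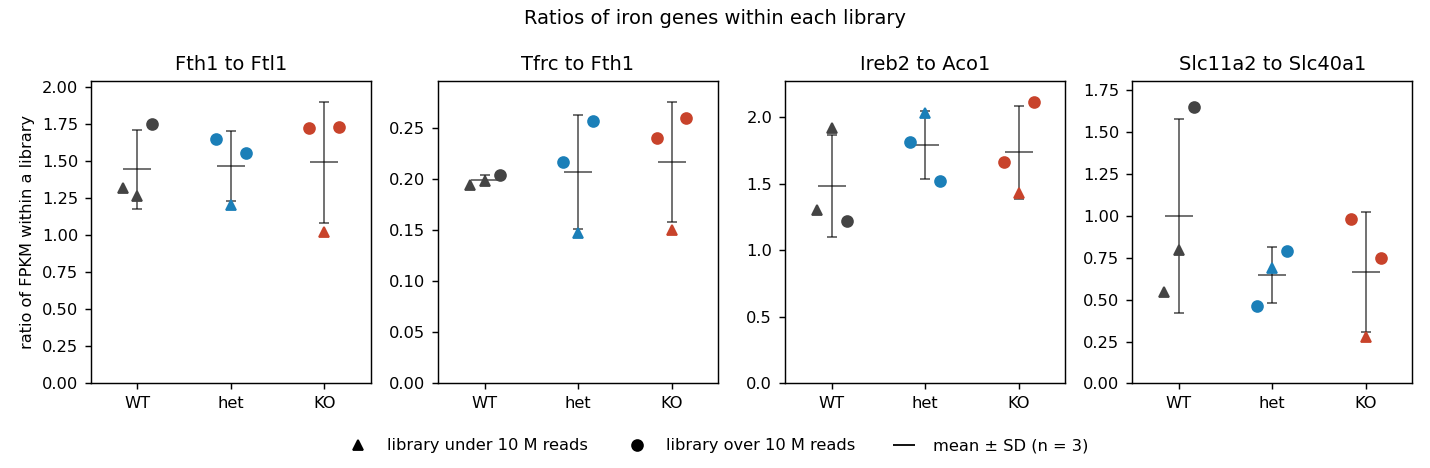
Ratios of FPKM within each library (vertical axes, linear, from 0) by genotype, 1 point per library, with triangles for libraries under 10 M reads and bars for mean ± SD of 3 libraries. Genotypes overlap in all 4 panels, and the triangles lie below the circles for Fth1 to Ftl1 and for Tfrc to Fth1.

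The other genes of the pathway gave no call in any of the 3 comparisons, over 7 further lists. Of the transferrin receptor trafficking list, all 11 genes were tested and 0 were called. The clathrin adaptor Picalm was at 395 ± 22.8, 378 ± 14.9 and 395 ± 59.8 FPKM in wildtype, heterozygous and knockout libraries, and Ap2m1, a subunit of the adaptor complex that gathers the receptor into coated pits, at 289 ± 34.5, 264 ± 7.23 and 279 ± 33.1 (SD, n = 3 each). The list's median knockout minus wildtype difference was 0.05 on the log2 scale, beside 0.01 for all genes. Trf, the gene of transferrin itself, and Hfe, whose protein binds the receptor, varied most in this list. Trf ran from 12.1 FPKM in wildtype replicate 3 to 191 in knockout replicate 2, the libraries lowest and highest in macrophage markers, which is 15.8-fold. Hfe ran from 2.74 FPKM in wildtype replicate 3 to 24.6 in wildtype replicate 1, 8.97-fold, and was at 22.6 in knockout replicate 2. The other 9 genes stayed below 2-fold, and both genes are singled out here after their values were seen.

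Mitochondrial iron delivery was strongly expressed. Slc25a37 (mitoferrin), which carries iron across the inner mitochondrial membrane, was at 866 ± 96.1, 839 ± 72.5 and 888 ± 130.3 FPKM in wildtype, heterozygous and knockout libraries, and Abcb10, which stabilises it, at 342 ± 17.3, 334 ± 19.8 and 361 ± 63.2 (SD, n = 3 each). Of 5 genes in this list 4 were tested, 0 were called, and mitochondrial ferritin (Ftmt) was listed at 0 in all 9 libraries. Among 8 other reductases and importers only Mcoln1, a lysosomal channel, and Slc39a8, a metal importer, were tested. The other 6 stayed below 1 FPKM in every library, with Steap1, Steap2 and Scara5 at 0 throughout. Mcoln1 was at 30.5 ± 2.99, 28.6 ± 1.75 and 31.3 ± 4.25 FPKM and Slc39a8 at 9.11 ± 3.2, 7.93 ± 0.951 and 7.76 ± 1.1 in the 3 genotypes.

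Of 6 partners in ferritin loading and turnover 4 were tested and 0 called. Pcbp2, a relative of Pcbp1 that also carries iron, was at 144 ± 16.7, 138 ± 3.85 and 138 ± 3.47 FPKM, and Bola2, which works with a glutaredoxin in handing on iron, at 39.6 ± 10.6, 33.1 ± 3.33 and 41.6 ± 1.5 (wildtype, heterozygous, knockout). All 4 genes of the ubiquitin ligase that degrades the iron-regulatory proteins were tested, with 0 called. Its subunit genes Skp1a and Cul1 were at 69.0 ± 3.74, 63.9 ± 3.22 and 67.6 ± 9.64 FPKM and at 54.0 ± 10.5, 49.9 ± 3.97 and 51.2 ± 6.86 FPKM.

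Among other known carriers of an iron-responsive element, Alas2 was tested and not called, while Epas1 stayed at or below 0.0861 FPKM. Alas2 was at 5846 ± 1579, 4445 ± 2609.6 and 4539 ± 1971 FPKM in wildtype, heterozygous and knockout libraries (SD, n = 3 each). Most export partners and systemic genes were nearly silent: of 10 in the table, 8 stayed below 1 FPKM in every library. Fam132b, which encodes erythroferrone, the signal by which erythroblasts lower hepcidin, was at 6.39 ± 0.856, 8.42 ± 3.37 and 8.14 ± 2.95 FPKM (wildtype, heterozygous, knockout; SD, n = 3 each). Its knockout minus wildtype difference was 0.27 ± 0.28 (log2, SE; adjusted p = 0.9997, limma). The second tested gene of this list was Tmprss6, at 0.996 ± 0.927, 1.13 ± 0.368 and 1.32 ± 0.4 FPKM.

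Over the 9 libraries, the genes most like 3 of the members were found by Pearson r of log2(FPKM + 1) among 9542 genes, as a description, since all points share their library's depth and cell makeup. For Tfrc they were Stom (r = 0.977), Ddx26b (0.976) and Nup133 (0.976). Stom, a red cell membrane protein, had the same low library, knockout replicate 2 at 368 FPKM, and the same high one, knockout replicate 3 at 566 FPKM. For Fth1 they were Fech (0.918), Max (0.898) and Rfk (0.898). Fech, which inserts iron into haem, ran from 973 FPKM in heterozygous replicate 1 to 1643 FPKM in heterozygous replicate 2. For Slc40a1 they were Asb13 (0.994), Ptgis (0.991) and Man2b2 (0.986). Ptgis, an enzyme of prostacyclin synthesis, was at 0.555 FPKM in wildtype replicate 3 and at 6.65 FPKM in knockout replicate 2, the libraries at the ends of the Slc40a1 range.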

How the data were processed

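Per the submitters' processing notes, TopHat, Picard and DESeq2 were used with the build mm10; for versions, roles, annotation, strand setting and read pairing the entry is "not given in the sources used here". The authors deposited 1 table of normalized values for 20368 genes in 9 libraries, taken as FPKM from the values, since per the file headers the columns carry only library names. Each gene detected in 2 or more libraries, 14147 in all, had values that were integer multiples of its own step (100.0%, tolerance 0.05 read). The step was found by a search, and for genes detected in few libraries some step fits almost any values. The share is therefore no check for those genes. The factors relating these steps between libraries matched median-of-ratios factors from 11276 genes. A shift in composition can move such a factor.

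From the deposited FPKM, log2(FPKM + 1) was tested for genes at 1 FPKM or more in at least 3 libraries with limma 3.58.1 in R 4.3.3 (a mean per genotype, eBayes with a trend, 2-sided, Benjamini-Hochberg threshold 0.05), after a trial on simulated data. Fold changes of low genes are understated on this scale. Voom on recovered reads, depth and macrophage terms, other scalings, filters and pseudocounts, a replicate block and the omission of each library were alternatives. Positions came from GENCODE M21, matched by identifier for 20028 rows. Reads were recovered and figures drawn in Python 3.11.15 (pandas 2.3.3, matplotlib 3.10.9 and numpy 2.4.6).

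Deviations from the genotype mean correlated between same-numbered knockout and heterozygous libraries at 0.2, 0.18 and 0.41 for numbers 1, 2 and 3. Against wildtype the correlations were -0.57, 0.51 and 0.33 (knockout) and 0.13, 0.18 and 0 (heterozygous). No such value was computed for differently numbered libraries, so these correlations cannot show whether the numbers pair libraries. No label states a pairing, and the main fit used none. The genes and lists were chosen with earlier results of these data known. Named genes are the 10 members, the 2 most abundant genes of each further iron list and any called, and the 3 genes most correlated with Tfrc, Fth1 and Slc40a1; others named were chosen after their values were seen. 1 gene of a further iron list is not reported here.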

Additional observations from a re-analysis of the deposited data

How the results depend on the processing

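No gene was called under any of 11 alternatives that kept all libraries or with any of the 9 libraries left out (limma or voom; 25 to 499 genes at an unadjusted p below 0.05), and the lowest adjusted p of a member was 0.863. The signs of differences near 0 moved: 14 of 30 member differences changed sign under an alternative with all libraries, 20 with a library left out and 5 under none. The cause was not tested. The equal-sum scaling moved the median of all genes by 0.06, 0.12 and -0.07 (log2; knockout versus wildtype, heterozygous versus wildtype, knockout versus heterozygous). With quantile normalization, knockout versus wildtype became 0.1 for Tfrc, 0.09 for Fth1, 0.1 for Ftl1 and 0.04 for Ncoa4. Heterozygous versus wildtype became 0.09 for Tfrc, 0.15 for Fth1, 0.11 for Ftl1, 0.01 for Ncoa4 and 0.05 for Pcbp1, and knockout versus heterozygous -0.05 for Fth1, -0.01 for Ftl1 and -0.06 for Pcbp1. With equal summed FPKM, knockout versus wildtype became 0.06 for Tfrc, 0.02 for Ncoa4 and 0.04 for Pcbp1. Heterozygous versus wildtype became 0.03 for Tfrc, 0.01 for Fth1 and 0.1 for Pcbp1, and knockout versus heterozygous -0.04 for Fth1, -0.03 for Ftl1, -0.06 for Aco1 and -0.07 for Pcbp1. A macrophage term gave 0.02 for Tfrc and 0.00021 for Pcbp1 in knockout versus wildtype, 0.01 for Pcbp1 in heterozygous versus wildtype, and -0.0046 for Aco1 and -0.01 for Pcbp1 in knockout versus heterozygous. A depth term gave 0.03 for Ftl1 and 0.02 for Ncoa4 in knockout versus wildtype. Leaving out each library in turn, knockout versus wildtype ran from -0.17 to 0.21 for Tfrc, -0.17 to 0.26 for Steap3, -0.39 to 0.05 for Ftl1, -0.07 to 0.08 for Ireb2, -0.2 to 0.37 for Slc40a1, -0.23 to 0.1 for Ncoa4 and -0.15 to 0.08 for Pcbp1. Heterozygous versus wildtype ran from -0.13 to 0.29 for Steap3, -0.03 to 0.12 for Ireb2, -0.01 to 0.53 for Slc40a1 and -0.17 to 0.07 for Pcbp1. Knockout versus heterozygous ran from -0.06 to 0.32 for Tfrc, -0.09 to 0.02 for Steap3, -0.05 to 0.18 for Fth1, -0.23 to 0.32 for Ftl1, -0.09 to 0.06 for Ireb2, -0.07 to 0.1 for Aco1, -0.5 to 0.04 for Slc40a1, -0.01 to 0.25 for Ncoa4 and -0.06 to 0.07 for Pcbp1. The log2 ratio Fth1 to Ftl1 ran from -0.11 to 0.27, -0.06 to 0.17 and -0.14 to 0.25 in the same order of comparisons, and Tfrc to Fth1 from -0.06 to 0.33, -0.15 to 0.25 and -0.16 to 0.31. In knockout versus heterozygous, Ireb2 to Aco1 ran from -0.2 to 0.08 and Slc11a2 to Slc40a1 from -0.47 to 0.44. With the replicate block, which used the numbers in all 3 genotypes, 0 genes were called in each comparison. Each genotype holds 1 library of each number, so the block cannot move a difference, only its error. For Slc11a2 in knockout versus wildtype (-0.45) the SE was 0.21 with the block and 0.22 without it. With 3 libraries a group, the median half-width of the members' 95% intervals was 0.43 on the log2 scale (0.42 for all genes).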
